A study of Zea mays with 72 samples.

Results

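In detached leaves of maize (Zea mays, inbred line B73), 34 genes stood at raised levels in both young leaves after 30 min and after 2 h of HAC. HAC is (Z)-3-hexenyl acetate, an ester among the green leaf volatiles that wounded leaves give off. These 34 are the sustained HAC-raised genes among 32235 genes with values. They were chosen by measured values, namely CPM (the expected count of a gene over its library's total, times 1000000) averaged over the 6 libraries of a group. In leaf 5 and in leaf 6, with 0.5 CPM added to each mean, the 30 min and the 2 h mean had to be at least 2.5 times the control mean. The ratio of 2 h to 30 min had to lie above 0.5 and below 2, and the 30 min mean had to reach 5 CPM. The HAC values of leaves 5 and 6 therefore chose the genes and are given as a description. Libraries of leaf 4 had no part in the choice, so leaf 4 carries the tests of HAC. No level of these genes after ZmPep3 was used either.

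The study held 72 libraries in 12 groups of 6 biological replicates, all of the genotype B73. Leaf 4, which the labels call mature, and leaves 5 and 6 were taken from V4 seedlings. Each was left as a control, exposed to HAC from volatile dispensers for 30 min or 2 h, or given ZmPep3 at about 1 µM in the tube water for 2 h. ZmPep3 is a maize plant elicitor peptide, a signal that is recognised at the cell surface. Every leaf, controls included, had been cut from its seedling, cut again under water and rested, and only leaf 4 also had its sheath removed. The dose of HAC and the harvest time of the controls are not given in the sources used here. Library totals ran from 26212027 to 31052273 counts. Photosynthesis markers (11 genes of light harvesting and carbon fixation) had group means of 75.4 to 12540 CPM, while the meristem gene kn1 stayed at or below 0.0659 CPM. The libraries are of whole leaves, in which fewer cells of a type and less RNA per cell cannot be told apart.

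Jasmonate is a lipid hormone of the defence against chewing insects. It is made from polyunsaturated fatty acids by lipoxygenases, allene oxide synthases and later enzymes, acts as a conjugate with isoleucine, and releases transcription by triggering the breakdown of JAZ proteins, repressors of the TIFY family. JAZ genes and the P450 enzymes that oxidise the active conjugate are themselves switched on by the hormone and limit its action. Green leaf volatiles and elicitor peptides are both known to call on this pathway in maize leaves.

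Of the 34 genes, 12 have a name in the RefSeq table and 22 only a locus number, so the latter are given by number and without a role. The named genes are 5 members of the TIFY family (JAZ9/TIFY13, NCBI Gene 100274370; TIFY6/TIFY7, 100276585; TIFY29, 100284541; TIFY1, 100284778; TIFY25, 100384222) and the jasmonate and lipoxygenase genes ts5 (103652921), aos3 (103644066) and lox4 (100037803). The others are the isoprenoid gene dxs2 (606430), the cytokinin oxidase gene CKX4 (100272805), the glutathione transferase gene gst20 (100856957) and gfa1 (100194010). Their levels per gene length spanned a wide range. Mean FPKM after 30 min of HAC over leaves 5 and 6, the authors' values per length, ran from 3.79 to 397 with a median of 21.3. TIFY25 had the highest FPKM of 397, followed by LOC103644182 at 331, LOC100274392 at 190.2, LOC100216819 at 149.9, TIFY6/TIFY7 at 131 and LOC100193934 at 96.5.

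The rule left these genes as a small share of those that HAC raised early. At 30 min, 376 genes in leaf 5 and 477 in leaf 6 met the fold and the level, and 315 did so in both. Of the 315, 219 had a 2 h mean at or below 0.5 times the 30 min mean in both leaves, and are called transient here. Also meeting the 2 h fold in both leaves were 85 genes. Of these, 30 lay at or below a ratio of 0.5 in at least 1 leaf and 21 at or above 2, which left the 34. The genes nearest the limits show where the class ends. Just inside, lox4 had the smallest 30 min fold, 2.63, and LOC103636463 the smallest 2 h fold, 2.57, while LOC100277040 with 2.49 and LOC100278639 with 2.24 fell just outside. The lowest ratio of 2 h to 30 min among members was 0.512 in gfa1, against 0.493 in LOC100279819 outside, and the highest was 1.89 in gst20, against 2.22 in LOC100272836 outside. LOC100272288 was the member of lowest level, 5.74 CPM, against 4.90 CPM in LOC109939901 outside.

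In the young leaves the members differed widely in the size of their rise and in its course, as the values of the rule itself show. In leaf 5 the ratio of the 30 min mean to the control mean ran from 2.63 in lox4 to 22.3 in LOC103641391 with a median of 4.46, and in leaf 6 from 2.64 in LOC103649908 to 32.4 in dxs2 with a median of 5.60. At 2 h the median ratio to control was 4.36 in leaf 5 and 5.33 in leaf 6. Between the times, 10 members had a higher mean at 2 h in both young leaves, among them aos3, lox4, gst20 and TIFY25, and 10 had a lower mean in both, among them gfa1, CKX4 and TIFY1. Another 11 were higher at 2 h in leaf 6 and lower in leaf 5, with dxs2, ts5 and TIFY6/TIFY7 among them, and 3 the reverse. The median ratio of 2 h to 30 min was 0.863 in leaf 5 and 1.05 in leaf 6, and the libraries of the 2 times overlapped for 31 members in leaf 5 and 29 in leaf 6. Over all genes tested the times did not overlap for 8.04% in leaf 5 and 11.6% in leaf 6, a share that the rule's limits on this ratio keep from being compared with that of the members.

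**Figure D1:**
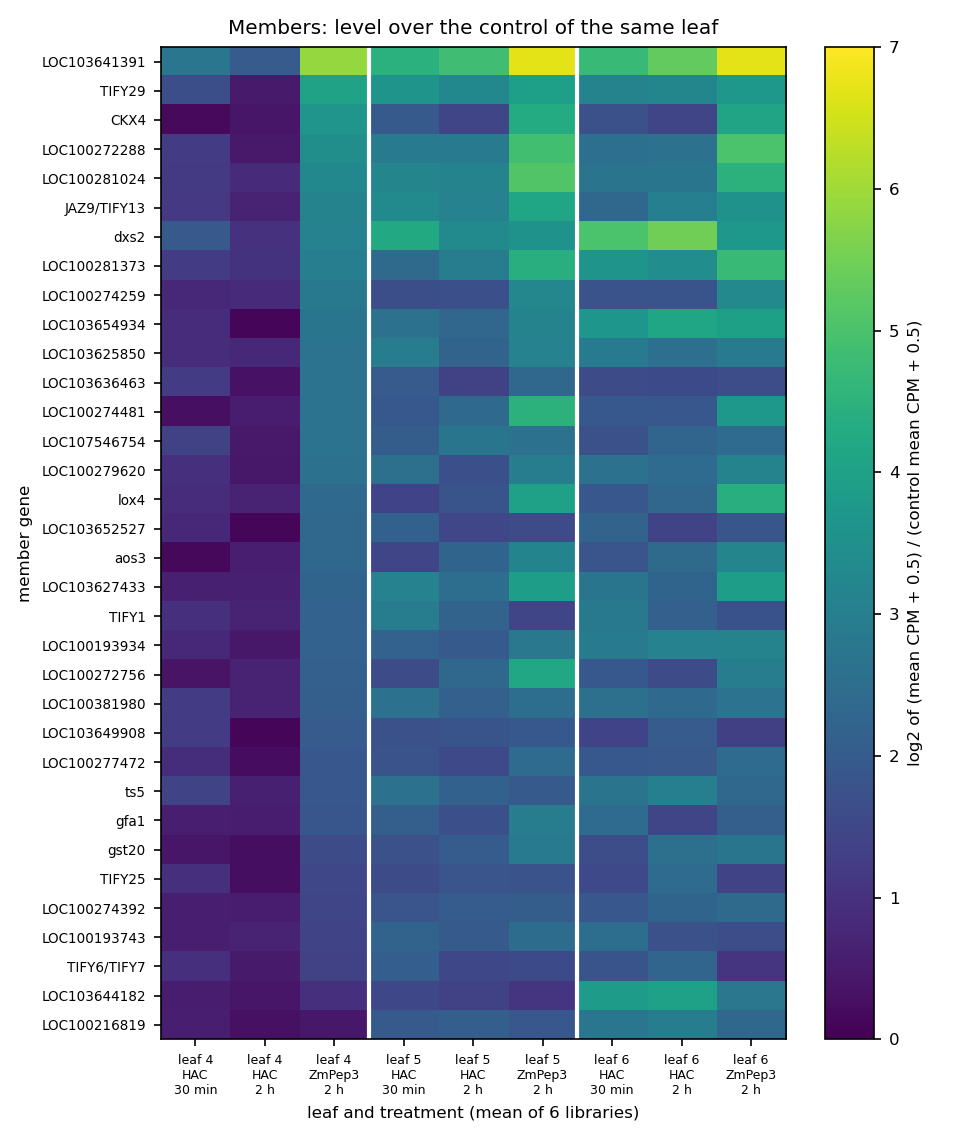
Mean level of each of the 34 genes in the 9 treated groups, as log2 of the ratio of the group mean to the control mean of the same leaf (0.5 CPM added; colour, 6 libraries per group), with genes in rows and groups in columns. The median ratio of 30 min HAC to control was 1.88 in leaf 4, 4.46 in leaf 5 and 5.60 in leaf 6, and that of ZmPep3 to control was 5.15, 7.67 and 7.58.

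In leaf 4, most of the same genes also rose after 30 min of HAC. Against the leaf 4 controls, 24 of the 34 were higher and none lower by edgeR's quasi-likelihood test (adjusted p below 0.05, Benjamini-Hochberg over 25558 genes). Of all genes tested, 2.53% were higher and 1.85% lower. All 34 had a log2 fold change above 0, with a median of 1.02 and a range from 0.24 in aos3 to 3.42 in LOC103641391, and 18 of the 24 rose at least 2-fold. The median over all genes tested was 0.0022, and 254 of the 25558 were higher by at least 2-fold. Side by side, 96 of the 219 transient genes (43.8%) were higher in leaf 4 at 30 min, with a median of 0.81. Whether the classes differ in leaf 4 was not tested. All 6 HAC libraries lay above all 6 controls for TIFY29, ts5, dxs2, LOC103649908, LOC103654934 and LOC107546754, and overlapped with them for the other 28. Of all genes tested, 0.79% had every HAC library above every control and 1.93% had every HAC library below. The HAC libraries 5 and 6 of this group stood apart: the median member was at 0.888 and 1.48 times the control mean there, against 1.86 to 2.29 times in the other 4. The median member ran from 0.685 to 1.44 times that mean in the leaf 4 controls themselves. Without HAC libraries 5 and 6, left out after the data were seen, 29 members were higher. Both were low for the members, so their removal favours a higher count and adds no support. Of the 11 photosynthesis markers, me3 and pdk1 were higher at 30 min of HAC in leaf 4, at 0.56 ± 0.16 (adjusted p = 0.0309) and 0.38 ± 0.11 (adjusted p = 0.0246), and none was lower. The summed level of the 11 was 26535 to 40619 CPM, against 21091 to 34499 CPM in the controls, and their part in the members' values was not tested.

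At 2 h of HAC the leaf 4 response was smaller. There 10 of the 34 were higher and none lower, with a median log2 fold change of 0.66 over the 34. Of all genes tested, 0.923% were higher and 0.763% lower. Only 5 of the 219 transient genes (2.28%) were higher at that time, with a median of 0.33. At an unadjusted p below 0.05, 25 members were higher. Counts at an unadjusted p have no share of all genes beside them here and cannot be set against the shares above. The count of 10 moved when single libraries were left out. It was 0 without control replicate 4 or HAC replicate 2, 1 without control replicate 5 and 2 without HAC replicate 3. It was 3 without control replicate 3 and 4 without control replicate 1. It was also 0 when leaf 4 alone was fitted, where 17 passed at an unadjusted p below 0.05, and 5 without a filter on low counts. DESeq2 on all libraries called 11. Both times together, 8 members were higher at both, 16 at 30 min alone, 2 at 2 h alone (aos3 and LOC100193743) and 8 at neither (CKX4, gst20, gfa1, LOC100272756, LOC100274392, LOC100274481, LOC103627433 and LOC103644182).

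Set against each other directly, the leaf 4 levels at 2 h were below those at 30 min for 9 members and above for none, where 2.11% of all genes tested were lower and 1.49% higher. The 9 were TIFY6/TIFY7, TIFY29, TIFY25, ts5, dxs2, LOC103636463, LOC103649908, LOC103654934 and LOC107546754. The count was 5 without HAC 30 min replicate 1 and 5 without HAC 2 h replicate 6. Without HAC 30 min replicates 5 and 6, which were low for the members, it was 10, with a median log2 fold change of -0.65. Their removal favours a higher count and adds no support. No such median is given for the transient genes. The markers me3 and lhcb5 were also lower at 2 h than at 30 min, at -0.53 ± 0.16 (adjusted p = 0.0467) and -0.46 ± 0.14 (adjusted p = 0.0423), and none of the 11 passed at 2 h against control. Mean levels were lower at 2 h for 28 of 34 members, and the median log2 fold change was -0.35, against -0.44 among the 219 transient genes, of which 50 (22.8%) were lower. The rule fixed a ratio above 0.5 in the young leaves only. In leaf 4, TIFY29 at 0.440 and LOC103649908 at 0.465 fell below it, and the median ratio over members was 0.790 there.

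**Figure D2:**
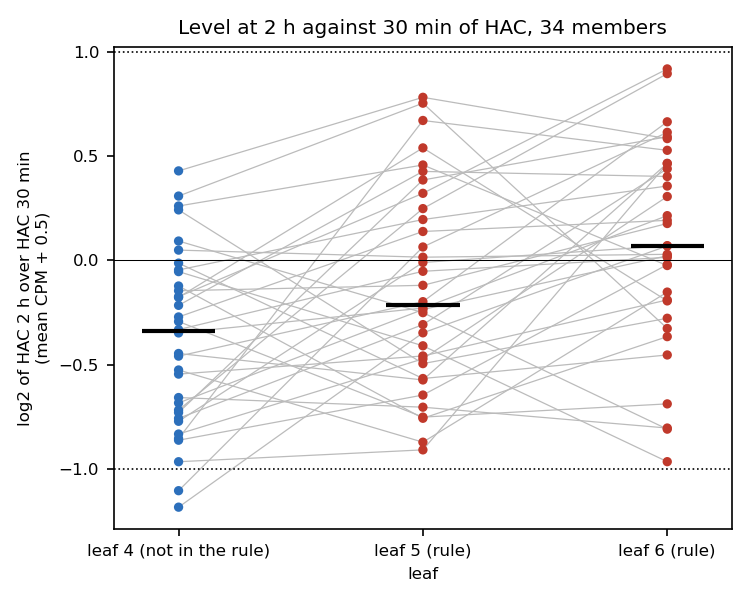
Ratio of the 2 h to the 30 min HAC mean of the 34 members in each leaf (0.5 CPM added), 1 point per member on a log axis. Medians were 0.790 in leaf 4, 0.863 in leaf 5 and 1.05 in leaf 6; the spread in leaves 5 and 6 is bounded by the rule at 0.5 and 2, while leaf 4 is not.

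ZmPep3 raised every member in every leaf. All 34 were higher than control in leaf 4, leaf 5 and leaf 6, where 20.3%, 22.4% and 23.3% of all genes tested were higher and 21.9%, 23% and 18.8% lower. The median log2 fold change was 2.70 in leaf 4 (6.503-fold), 3.03 in leaf 5 and 3.15 in leaf 6, and the medians over all genes were -0.05, -0.06 and -0.02. The same controls of leaves 5 and 6 entered the membership rule, and a low control level there favours both membership and a high ZmPep3 ratio. In leaf 4 the ZmPep3 and HAC comparisons share 1 set of controls, which took no part in the rule. Of the 219 transient genes, 203 (92.7%) were higher after ZmPep3 in leaf 4, 205 (93.6%) in leaf 5 and 148 (67.6%) in leaf 6, where 7 were lower. In leaf 4, 33 members were higher by at least 2-fold, as were 177 of the 219 transient genes and 2378 of the 25558 genes tested. The exception among the members was LOC100216819, with 0.65 ± 0.20 on the log2 scale. Of the 11 photosynthesis markers, 5 were lower after ZmPep3 in leaf 4, 2 in leaf 5 and none in leaf 6. None was higher. These counts stand beside the 21.9%, 23% and 18.8% of all genes tested that were lower. Summed, the 11 markers stood at 21091 to 34499 CPM in the leaf 4 controls and at 16259 to 28958 CPM after ZmPep3. Their part in the members' rise was not tested.

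In leaf 4 the peptide also gave higher levels than 2 h of HAC. Set against each other, 33 of the 34 were higher after ZmPep3, where 15.2% of all genes tested were higher and 16% lower. The median log2 difference over the 34 was 2.01. The 1 member not called was LOC100216819, at 0.28 ± 0.20 (adjusted p = 0.307). In the young leaves the 2 h HAC levels belong to the rule, so the same comparison is a description there: the ZmPep3 mean was above the 2 h HAC mean for 28 members in leaf 5 and 24 in leaf 6. The 5 with lower means in both young leaves were TIFY1, TIFY25, ts5, LOC100216819 and LOC103644182. The genes highest in fold after ZmPep3 in leaf 4 were LOC103641391 (6.76 ± 0.73 on the log2 scale), TIFY29 (6.05 ± 0.58), LOC100272288 (4.91 ± 0.52) and CKX4 (3.90 ± 0.28). The lowest after LOC100216819 were LOC103644182 (1.15 ± 0.24), TIFY6/TIFY7 (1.55 ± 0.14) and LOC100193743 (1.63 ± 0.22).

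**Figure D3:**
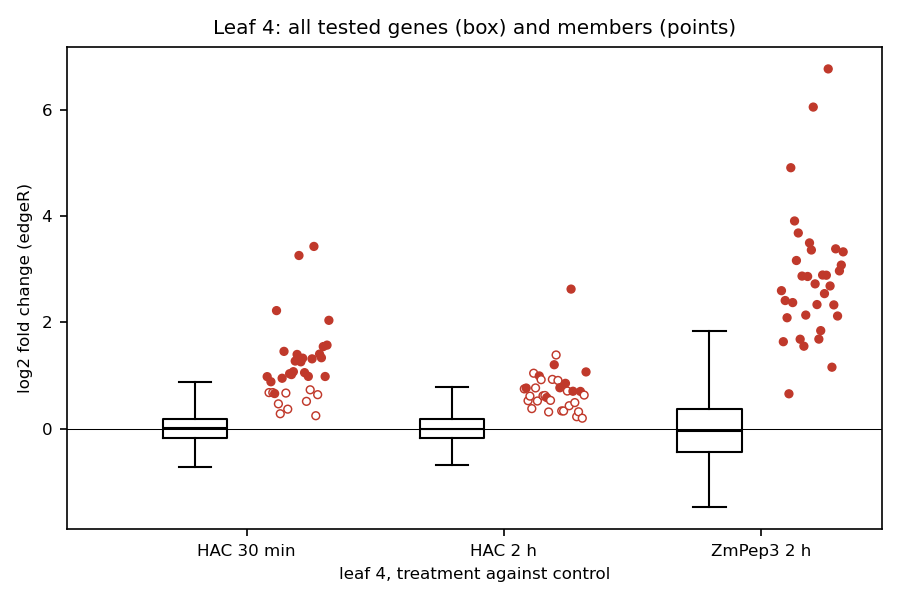
Fitted log2 fold changes of the 34 members in leaf 4 against the leaf 4 controls (edgeR, 6 libraries per group), by treatment. The medians were 1.02 after 30 min of HAC, 0.66 after 2 h of HAC and 2.70 after ZmPep3; filled points passed an adjusted p of 0.05, which were 24, 10 and 34 members.

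Among the TIFY genes, which include the JAZ repressors, both the most abundant and some of the scarcest members are found. TIFY6/TIFY7 was abundant in all leaves. In leaf 4 it stood at 108 to 187 CPM in the controls (median 125.1), 169 to 286 after 30 min of HAC (median 273), 145 to 256 after 2 h of HAC (median 176) and 309 to 357 after ZmPep3 (median 339). It rose by 1.03 ± 0.13 (adjusted p = 8.61e-08) at 30 min and by 0.58 ± 0.13 (adjusted p = 0.0114) at 2 h on the log2 scale. The 2 h call was lost without control replicate 4 or HAC 2 h replicate 2 or 3, and HAC and control libraries overlapped at both times, by 1 high control library. In leaf 5 it stood at 40.6 to 50.97 CPM in the controls (median 47.2), 129 to 255 after 30 min of HAC (median 202), 109.7 to 186 after 2 h of HAC (median 124.6) and 123 to 169 after ZmPep3 (median 134). In leaf 6 it stood at 24.9 to 32.6 CPM in the controls (median 30.4), 95.3 to 121 after 30 min of HAC (median 107), 129.5 to 161 after 2 h of HAC (median 149) and 45.9 to 72.1 after ZmPep3 (median 66.3). In leaf 6 every 2 h HAC library lay above every 30 min library and above every ZmPep3 library, an order that leaf 4 did not show.

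TIFY25, the member of highest FPKM, kept the same order in leaf 6. Its leaf 6 levels were 114 to 218 CPM in the controls (median 159), 342 to 523 after 30 min of HAC (median 497), 739.8 to 989.7 after 2 h of HAC (median 895) and 325 to 544 after ZmPep3 (median 445). In leaf 4 they were 209 to 374 CPM in the controls (median 235), 329 to 587 after 30 min of HAC (median 519), 225 to 449.7 after 2 h of HAC (median 263) and 621 to 793 after ZmPep3 (median 707). There it rose by 1.05 ± 0.17 (adjusted p = 1.02e-05) at 30 min, and was then lower at 2 h than at 30 min, at -0.72 ± 0.16 (adjusted p = 0.00469). At 2 h it was not distinguishable from control, at 0.33 ± 0.16 (adjusted p = 0.332). After ZmPep3 all 6 leaf 4 libraries lay above all controls, a rise of 1.68 ± 0.17.

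TIFY29 was almost silent in control leaves. In leaf 5 its levels were 0 to 0.269 CPM in the controls (median 0.0832), 5.92 to 8.36 after 30 min of HAC (median 7.23), 2.095 to 8.13 after 2 h of HAC (median 5.60) and 6.41 to 10.4 after ZmPep3 (median 9.39). In leaf 4 they were 0 to 0.434 CPM in the controls (median 0.184), 0.997 to 3.97 after 30 min of HAC (median 1.195), 0 to 1.25 after 2 h of HAC (median 0.326) and 5.77 to 17.3 after ZmPep3 (median 9.77). All 6 leaf 4 libraries at 30 min lay above all controls, with a rise of 3.25 ± 0.59 (adjusted p = 0.000173), and 1 of them was far above the other 5. The 2 h level was lower than the 30 min level, at -1.87 ± 0.52 (adjusted p = 0.0243), a value that became -2.49 without HAC 2 h replicate 2. In leaf 6 the levels were 0 to 0.813 CPM in the controls (median 0.236), 2.25 to 12.9 after 30 min of HAC (median 5.34), 3.03 to 11.5 after 2 h of HAC (median 6.46) and 7.51 to 12.4 after ZmPep3 (median 9.91). Its rise after ZmPep3 was 6.05 ± 0.58 in leaf 4, 6.26 ± 0.61 in leaf 5 and 5.23 ± 0.55 in leaf 6, the last 5.87 without leaf 6 control replicate 6. Leaf 4 after ZmPep3 overlapped with leaf 5 and leaf 6 in level, whereas leaf 4 after HAC did not reach the medians of the young leaves.

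JAZ9/TIFY13 was likewise low in controls and rose in leaf 4 by 1.45 ± 0.35 (adjusted p = 0.00793) after 30 min of HAC. The leaf 4 levels were 0.971 to 2.52 CPM in the controls (median 1.62), 1.33 to 6.89 after 30 min of HAC (median 4.83), 1.62 to 5.38 after 2 h of HAC (median 2.55) and 13.6 to 25.97 after ZmPep3 (median 16.5). The HAC and control libraries overlapped, while every ZmPep3 library lay above both. In leaf 5 the levels were 0.167 to 0.403 CPM in the controls (median 0.301), 3.71 to 8.75 after 30 min of HAC (median 8.15), 4.83 to 8.13 after 2 h of HAC (median 6.65) and 6.81 to 16.6 after ZmPep3 (median 15.2). In leaf 6 they were 0.0339 to 2.504 CPM in the controls (median 0.6898), 3.18 to 11.7 after 30 min of HAC (median 6.44), 8.94 to 12.7 after 2 h of HAC (median 11.6) and 15.6 to 19.1 after ZmPep3 (median 16.01). Its ZmPep3 rise was 3.68 ± 0.37, 5.46 ± 0.44 and 4.25 ± 0.39 in leaves 4, 5 and 6. For leaf 6 it came to 4.85 without leaf 6 control replicate 4.

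TIFY1 had higher means with HAC at 2 h than with the peptide in both young leaves. In leaf 6 its levels were 2.52 to 8.95 CPM in the controls (median 5.05), 28.02 to 45.3 after 30 min of HAC (median 42.5), 20.8 to 33.7 after 2 h of HAC (median 23.3) and 11.7 to 22.3 after ZmPep3 (median 19.6). In leaf 4 they were 0.739 to 3.77 CPM in the controls (median 1.12), 1.43 to 5.31 after 30 min of HAC (median 4.15), 0.864 to 4.75 after 2 h of HAC (median 2.695) and 7.94 to 12.7 after ZmPep3 (median 8.45). The leaf 4 rise at 30 min was 1.25 ± 0.35 (adjusted p = 0.0259), a call lost without any 1 of control replicates 3, 4 or 5 or HAC replicates 1, 2 or 3. The rise after ZmPep3 was 2.72 ± 0.35 in leaf 4 and 1.72 ± 0.34 in leaf 5.

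The TIFY family as a whole held sustained genes, transient genes and genes of neither class. Of its 21 genes in the table, all tested, 5 are members, 6 met the transient pattern (TIFY2/TIFY3, TIFY4, TIFY28, TIFY9, TIFY10 and TIFY20) and 10 met neither. Among the transient 6 the ratio of 2 h to 30 min lay between 0.058 and 0.343 in leaf 5 and between 0.075 and 0.349 in leaf 6. In leaf 4, where neither class was chosen, 15 of the 21 were higher at 30 min and 3 at 2 h, and 10 were lower at 2 h than at 30 min. Of all genes tested, 2.53% and 0.923% were higher at these times, and 2.11% were lower at 2 h than at 30 min. TIFY20 was lower at 2 h, at -2.99 ± 0.24 (adjusted p = 4.18e-14) in leaf 4, against -0.45 ± 0.13 in TIFY6/TIFY7 and -0.72 ± 0.16 in TIFY25. After ZmPep3, 17 of the 21 were higher and 2 lower in leaf 4, beside 20.3% and 21.9% of all genes tested. The family median was a log2 fold change of 1.03 at 30 min and 0.41 at 2 h of HAC in leaf 4, and 1.68 after ZmPep3.

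**Figure D4:**
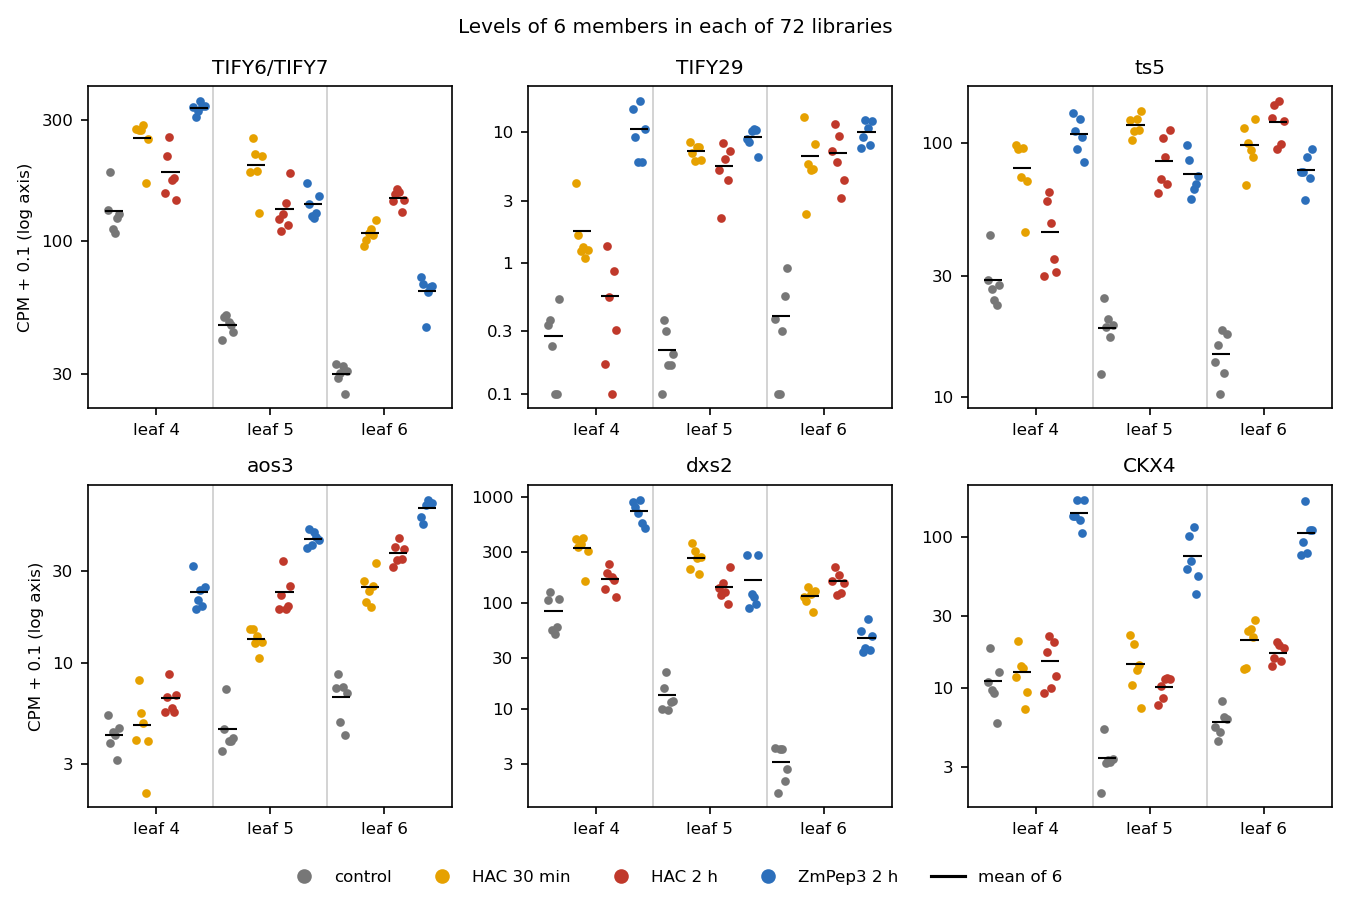
Levels of 6 members in each of the 72 libraries, as CPM with 0.1 added on a log axis; each point is 1 library, coloured by treatment, and bars are means of 6. TIFY6/TIFY7, TIFY29, ts5 and dxs2 were higher after 30 min of HAC in leaf 4, where aos3 and CKX4 were not, and all 6 genes were higher after ZmPep3 in each leaf.

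The jasmonate enzymes among the members act at both ends of the hormone's life. The gene ts5 (tasselseed5) encodes a CYP94B cytochrome P450 that oxidises and so inactivates the isoleucine conjugate. In leaf 4 the levels were 23.0 to 43.5 CPM in the controls (median 27.2), 44.8 to 98.6 after 30 min of HAC (median 84.3), 30.1 to 64.1 after 2 h of HAC (median 41.7) and 84.5 to 132 after ZmPep3 (median 109). All 6 leaf 4 libraries at 30 min lay above all controls, a rise of 1.54 ± 0.19 (adjusted p = 2.88e-08), and the 2 h level was lower than that at 30 min, at -0.84 ± 0.19 (adjusted p = 0.00364). It was still above control at 2 h, by 0.70 ± 0.19 (adjusted p = 0.0407), a call lost without any 1 of control replicates 1, 3, 4 or 5 or HAC replicates 2, 3 or 4. Its leaf 5 levels were 12.3 to 24.4 CPM in the controls (median 19.02), 103 to 134 after 30 min of HAC (median 118), 63.7 to 113 after 2 h of HAC (median 80.4) and 60.3 to 98.3 after ZmPep3 (median 71.7). In leaf 6 they were 10.2 to 18.3 CPM in the controls (median 14.8), 68.4 to 124.8 after 30 min of HAC (median 96.96), 95.3 to 147 after 2 h of HAC (median 124) and 59.6 to 95.4 after ZmPep3 (median 76.98). In both young leaves the peptide left ts5 at a lower median than HAC at either time.

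The gene aos3 is an allene oxide synthase by its symbol, an enzyme of the step after the lipoxygenases in jasmonate synthesis. It was the member with the smallest leaf 4 change at 30 min, 0.24 ± 0.19 (adjusted p = 0.582), and 1 of 2 called at 2 h alone, 0.70 ± 0.19 (adjusted p = 0.0387). Its leaf 4 levels were 3.04 to 5.27 CPM in the controls (median 4.22), 2.03 to 8.09 after 30 min of HAC (median 4.35), 5.51 to 8.75 after 2 h of HAC (median 6.18) and 18.9 to 31.7 after ZmPep3 (median 22.5), so that every 2 h library lay above every control. The 2 h call was lost without any 1 of control replicates 2, 3, 4 or 5 or HAC replicates 2, 3 or 6. In leaf 5 the levels were 3.43 to 7.28 CPM in the controls (median 3.94), 10.6 to 14.9 after 30 min of HAC (median 13.3), 18.99 to 33.8 after 2 h of HAC (median 21.1) and 39.4 to 49.5 after ZmPep3 (median 44.2). In leaf 6 they were 4.15 to 8.72 CPM in the controls (median 7.101), 19.5 to 33.2 after 30 min of HAC (median 24.3), 31.4 to 44.5 after 2 h of HAC (median 36.97) and 52.98 to 70.6 after ZmPep3 (median 66.8). Of all members aos3 climbed furthest from 30 min to 2 h in leaf 5, with a ratio of 1.72 and no overlap between the times.

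The gene lox4 is a 9-lipoxygenase, of the branch that makes other oxidised lipids than jasmonate. Levels of lox4 in leaf 4 were 21.7 to 63.2 CPM in the controls (median 29.7), 40.4 to 81.9 after 30 min of HAC (median 66.1), 38.8 to 81.1 after 2 h of HAC (median 54.4) and 107 to 258 after ZmPep3 (median 191). The rise at 30 min was 0.98 ± 0.24 (adjusted p = 0.00975) and the 2 h value 0.75 ± 0.24 (adjusted p = 0.1) did not pass, with overlap between HAC and control libraries at both times. After ZmPep3 the rise was 2.59 ± 0.26 in leaf 4, 4.08 ± 0.27 in leaf 5 and 4.57 ± 0.28 in leaf 6. In the young leaves every ZmPep3 library lay above every 2 h HAC library: leaf 5 had 9.34 to 18.5 CPM in the controls (median 15.2), 37.1 to 41.97 after 30 min of HAC (median 40.4), 38.7 to 73.4 after 2 h of HAC (median 52.5) and 156 to 412 after ZmPep3 (median 226), and leaf 6 had 7.77 to 12.99 CPM in the controls (median 8.299), 24.4 to 47.2 after 30 min of HAC (median 36.1), 35.4 to 58.7 after 2 h of HAC (median 49.4) and 107 to 439 after ZmPep3 (median 161).

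No other gene of a list of lipoxygenases and jasmonate enzymes met the rule. Its 27 genes (lipoxygenases, allene oxide synthases and cyclases, OPR reductases and ts5) were matched by symbol, so not all make jasmonate, as lox4 shows. Of the 27, 4 were higher in leaf 4 at 30 min of HAC and 5 at 2 h, with none lower. After ZmPep3 in leaf 4, 20 were higher and 1 lower. Of all genes tested, 2.53%, 0.923% and 20.3% were higher in these 3 comparisons. Only ts5, aos3 and lox4 are members, and ts1, a 13-lipoxygenase, met the transient pattern. Genes that missed the rule could still respond in the young leaves. At 2 h of HAC, lox5 stood at 34.6 and 15.7 times control in leaves 5 and 6, and aos1 at 5.43 and 6.18 times. Others did not rise, such as opr5 (0.908 and 0.862 times) and lox12 (0.816 and 0.696 times). In leaf 4 ts1 rose by 0.88 ± 0.18 (adjusted p = 0.000706) at 30 min, and lox5 by 1.58 ± 0.32 (adjusted p = 0.00414) at 2 h. 

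The gene dxs2 encodes a 1-deoxy-D-xylulose 5-phosphate synthase, the enzyme that opens the plastid route to isoprenoids, from which leaf terpene volatiles derive. It had the largest ratios of leaf 6, 32.4 at 30 min and 44.7 at 2 h. Its leaf 6 levels were 1.51 to 4.20 CPM in the controls (median 3.31), 82.1 to 140.5 after 30 min of HAC (median 117), 119 to 216 after 2 h of HAC (median 156) and 33.9 to 69.9 after ZmPep3 (median 42.8). In leaf 5 they were 9.74 to 22.3 CPM in the controls (median 11.6), 185 to 364 after 30 min of HAC (median 266), 96.9 to 218 after 2 h of HAC (median 132) and 89.8 to 285 after ZmPep3 (median 116). Levels in leaf 4 were 50.4 to 126 CPM in the controls (median 82.2), 159.6 to 412 after 30 min of HAC (median 349.6), 113 to 231 after 2 h of HAC (median 170.0) and 502 to 938 after ZmPep3 (median 747). Leaf 4 controls thus lay above all controls of the young leaves, and the 30 min libraries of leaf 4 lay above all leaf 4 controls.

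In the leaf 4 test dxs2 rose by 2.04 ± 0.28 (adjusted p = 3.12e-07) at 30 min and 1.06 ± 0.27 (adjusted p = 0.0252) at 2 h, and was lower at 2 h than at 30 min, at -0.97 ± 0.27 (adjusted p = 0.0237). The 2 h call was lost without any 1 of control replicates 3, 4 or 5 or HAC replicates 2 or 3. After ZmPep3 its order differed between leaves: the leaf 4 mean was 4.35 times the 2 h HAC mean, with no overlap, and the leaf 6 mean was 0.295 times, also with no overlap. The other 4 isoprenoid precursor genes of the list (dxs1, dxr, Hds1 and HDR) did not pass in leaf 4 after HAC at either time. Of the list of 5, 3 were higher after ZmPep3 in leaf 4, namely dxs2, Hds1 and HDR, where 20.3% of all genes tested were higher.

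Cytokinin oxidases break down cytokinins, hormones of cell division and leaf greenness. CKX4 stood higher after the peptide than after HAC in each leaf. Its leaf 4 levels were 5.74 to 18.3 CPM in the controls (median 10.2), 7.18 to 20.4 after 30 min of HAC (median 12.6), 9.16 to 22.1 after 2 h of HAC (median 14.6) and 107 to 178 after ZmPep3 (median 138). Neither HAC time passed in leaf 4, at 0.28 ± 0.26 (adjusted p = 0.651) and 0.52 ± 0.25 (adjusted p = 0.33), and the ZmPep3 rise was 14.97-fold, 3.90 ± 0.28 on the log2 scale. In leaf 5 the levels were 1.92 to 5.24 CPM in the controls (median 3.19), 7.25 to 22.4 after 30 min of HAC (median 13.6), 7.68 to 11.6 after 2 h of HAC (median 10.8) and 41.9 to 118 after ZmPep3 (median 65.3). In leaf 6 they were 4.34 to 8.08 CPM in the controls (median 5.81), 13.3 to 28.04 after 30 min of HAC (median 22.7), 14.01 to 20.2 after 2 h of HAC (median 17.04) and 76.3 to 175 after ZmPep3 (median 102). ZmPep3 libraries lay above all others of the same leaf in each leaf. Of the 10 cytokinin oxidase genes in the table, 8 were tested. CKX4b was the 1 called after 30 min of HAC in leaf 4, at 1.18 ± 0.29 (adjusted p = 0.00747), and CKX4b and cko2 met the transient pattern in the young leaves. After ZmPep3 in leaf 4, CKX4b rose by 3.71 ± 0.30 and cko2 by 2.39 ± 0.25, so a strong rise was not particular to CKX4. Of the 8, 4 were higher there and 1 lower, beside 20.3% and 21.9% of all genes tested.

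The remaining named members did not pass for HAC in leaf 4. The gene gst20 is a glutathione transferase by its symbol, of enzymes that attach glutathione to reactive compounds. It gave 0.51 ± 0.19 (adjusted p = 0.109) at 30 min in leaf 4, and gfa1 gave 0.68 ± 0.24 (adjusted p = 0.0955). Without HAC 30 min replicates 5 and 6, which were low for the members, both genes were called, at 0.71 and 0.9976. The leaf 4 levels of gst20 were 40.6 to 67.3 CPM in the controls (median 54.6), 36.2 to 92.3 after 30 min of HAC (median 74.4), 51.2 to 76.1 after 2 h of HAC (median 63.2) and 128 to 213 after ZmPep3 (median 148). In leaf 6 they were 5.04 to 14.4 CPM in the controls (median 9.36), 25.2 to 45.3 after 30 min of HAC (median 29.9), 51.9 to 72.9 after 2 h of HAC (median 59.2) and 57.3 to 84.04 after ZmPep3 (median 64.03). Every leaf 6 library of gst20 at 2 h lay above every 1 at 30 min, whereas gfa1 had the reverse order in leaf 6, with 6.37 to 15.4 CPM in the controls (median 9.42), 41.9 to 66.9 after 30 min of HAC (median 55.8), 18.98 to 34.04 after 2 h of HAC (median 28.9) and 29.7 to 72.5 after ZmPep3 (median 40.3). Among 33 glutathione transferase genes in the table, 32 were tested; none was higher and 1 was lower after 30 min of HAC in leaf 4, and 7 (21.9%) were higher and 3 lower after ZmPep3, a share near the 20.3% of all genes tested that were higher.

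Among the 22 members with only a locus number, 16 were higher at 30 min and 6 at 2 h of HAC in leaf 4, and all 22 after ZmPep3 in each leaf. Of all genes tested, 2.53% and 0.923% were higher after HAC in leaf 4, and 20.3%, 22.4% and 23.3% after ZmPep3 in leaves 4, 5 and 6. The leaf 4 log2 fold changes of the 22 ran from 0.36 to 3.42 at 30 min and from 0.65 to 6.76 after ZmPep3. LOC103641391 lay at the top of both. Its leaf 4 levels were 0 to 2.08 CPM in the controls (median 0.712), 0.136 to 21.3 after 30 min of HAC (median 6.09), 0.588 to 11.04 after 2 h of HAC (median 3.32) and 32.5 to 120.0 after ZmPep3 (median 81.4), so that HAC libraries scattered widely and overlapped with the controls, while all ZmPep3 libraries lay above. It rose by 3.42 ± 0.68 (adjusted p = 0.000838) at 30 min and 2.62 ± 0.69 (adjusted p = 0.0346) at 2 h, the latter lost without any 1 of control replicates 1, 4 or 5 or HAC replicates 2 or 5.

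In leaf 5 LOC103641391 stood at 0 to 0.5301 CPM in the controls (median 0.101), 7.87 to 20.1 after 30 min of HAC (median 14.9), 10.3 to 30.3 after 2 h of HAC (median 16.8) and 50.02 to 84.4 after ZmPep3 (median 69.6), and in leaf 6 at 0 to 1.82 CPM in the controls (median 0.118), 14.5 to 34.2 after 30 min of HAC (median 27.04), 30.5 to 52.5 after 2 h of HAC (median 34.5) and 75.9 to 136 after ZmPep3 (median 95.96). Its ZmPep3 log2 fold changes there, 8.81 ± 0.88 and 7.87 ± 0.79, rest on near-silent controls and became 9.82 without leaf 5 control replicate 4 and 9.26 without leaf 6 control replicate 4. LOC100216819 lay at the other end after ZmPep3 in leaf 4, though not after 30 min of HAC. Its leaf 4 levels were 61.1 to 111 CPM in the controls (median 83.5), 75.2 to 164 after 30 min of HAC (median 135), 63.5 to 143 after 2 h of HAC (median 112) and 86.7 to 163 after ZmPep3 (median 109), and all 4 groups overlapped. In leaf 6 it stood at 15.1 to 45.7 CPM in the controls (median 30.7), 139.7 to 265 after 30 min of HAC (median 215), 198 to 264 after 2 h of HAC (median 241) and 119 to 190.4 after ZmPep3 (median 166), where every ZmPep3 library lay below every 2 h HAC library. Its 30 min call in leaf 4, 0.66 ± 0.20 (adjusted p = 0.0418), was lost without any 1 of control replicates 1, 3, 4 or 5 or HAC replicates 2, 3 or 4.

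The members also differed between leaves before any treatment, which the rule partly sets, since a low control level in leaves 5 and 6 favours membership. The leaf 4 control mean was above both young-leaf control means for 27 of 34 members. No share of all genes stands beside this count, so it cannot be read as particular to the members. The median ratio of leaf 5 to leaf 4 controls was 0.478, with a range from 0.0638 in LOC100272756 to 3.29 in LOC103652527, and that of leaf 6 to leaf 4 was 0.449, with dxs2 lowest at 0.0421. After 30 min of HAC the median ratios were 1.11 and 1.29, and leaf 4 was above leaf 5 for 14 members and above leaf 6 for 15. After ZmPep3 they were 0.722 and 0.733, with leaf 4 above leaf 5 for 26 members and above leaf 6 for 22. Leaf 6 and leaf 5 controls had a median ratio of 1.03.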

How the data were processed

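RNA of 72 leaf samples was sequenced as DNBSEQ libraries, per the labels' protocols. Bowtie2, RSEM and the build B73 RefGen_v4 are named in the submitters' processing notes. Of the deposited tables, the first holds expected counts, which the authors left unscaled, and the second FPKM, which the authors scaled to gene length and library. Of counts above 0, 11.09% were not whole (tolerance 1e-06), as reads were split between similar genes, so close copies are uncertain. Identifiers are NCBI Gene numbers; 43547 entries included 11312 blank in all samples. Names came from the RefSeq table of Zm-B73-REFERENCE-NAM-5.0, which held all 34 members; its build differs, so no coordinates or sequences are given.

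Rounded counts were filtered with filterByExpr (25558 genes, all 34 members kept), scaled by TMM and fitted in edgeR 4.0.16 (R 4.3.3) with a robust quasi-likelihood model of 12 groups. Fold changes are log2 ± SE. The SE is the absolute log2 fold change divided by the square root of the quasi-likelihood F statistic, so it is an approximate value. Adjusted p-values are those of edgeR's quasi-likelihood test, by Benjamini-Hochberg over all genes. DESeq2 1.42.0 was an alternative. Fits with 1 library left out kept the trended dispersions of the full fit, and their quasi-likelihood step was not robust. For calls lost or gained in them, the library and the changed fit cannot be told apart. Members and lists were chosen with earlier results of these data known. Genes were named by fixed rules on list, fold, FPKM and distance from a limit, and those given in full were chosen after their values were seen. Replicates are the authors' biological replicates.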

Additional observations from a re-analysis of the deposited data

Results flagged for a closer look

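For 3 members, ZmPep3 levels lay on opposite sides of 2 h HAC in leaves 4 and 6, with every library of one group above every library of the other in each leaf; the difference between leaves was not tested. Such opposite sides were seen in 0.383% of all genes tested. The 2 h HAC levels of leaf 6 belong to the rule, so this share cannot be compared with that of the members. The ratio of the ZmPep3 mean to the 2 h HAC mean was 1.79 in leaf 4 and 0.431 in leaf 6 for TIFY6/TIFY7, 2.34 and 0.504 for TIFY25, and 4.35 and 0.295 for dxs2.

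Among the 14 members given in full, 1 library lay far from the other 5 in 17 of 168 groups (10.1%). The limit used flags about 1 in 20 if values are normally distributed and independent. These CPM values come from genes measured in the same libraries, so that rate cannot be set against the 10.1%. Leaf 4 control replicate 2 was high for TIFY6/TIFY7 (187 CPM), TIFY25 (374 CPM) and ts5 (43.5 CPM), and leaf 4 control replicate 6 was high for TIFY1 (3.77 CPM). After 30 min of HAC in leaf 4, replicate 5 was low for TIFY6/TIFY7 (169 CPM) and replicate 1 high for TIFY29 (3.97 CPM). Leaf 4 ZmPep3 replicate 4 was high for TIFY1 (12.7 CPM). In leaf 5, HAC 30 min replicate 5 was low for JAZ9/TIFY13 (3.71 CPM), control replicate 3 high for aos3 (7.28 CPM) and control replicate 4 high for LOC103641391 (0.530 CPM). Leaf 6 ZmPep3 replicate 3 was high for JAZ9/TIFY13 (19.1 CPM), lox4 (439 CPM) and CKX4 (175 CPM) and low for TIFY6/TIFY7 (45.9 CPM). Also in leaf 6, TIFY1 was high in HAC 2 h replicate 4 (33.7 CPM), TIFY25 low in HAC 30 min replicate 2 (342 CPM) and lox4 high in control replicate 4 (13.0 CPM).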

How the results depend on the processing

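The number of genes meeting the rule was 53 at a fold of 2 and 18 at a ratio window of 0.67 to 1.5, against 34, and ran from 23 to 42 under the other 6 alternatives. Of the member counts, that of genes higher after 2 h of HAC in leaf 4 moved most. It fell from 10 to 5 with no filter on low counts and to 0 in a fit of that leaf only. Why it fell was not tested. With each library left out in turn it ran from 0 to 13, the 30 min count from 20 to 28 (17 in a fit of leaf 4 only), and the count lower at 2 h than at 30 min from 5 to 10; ZmPep3 counts stayed at 34 in each leaf and at 32 or 33 against HAC.

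The replicate block gave 24, 10, 9, 34, 34, 34 and 33 for the 7 counts, the same as without it. Of 396 pairs of libraries sharing a replicate number, 23 had a residual correlation over 0.1 (median 0.009) and 17 of 72 libraries correlated best with their own number, so the numbers were not taken as pairs.

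Over 1326 gene values, 1273 kept direction and side, 33 lost a call, 15 gained one and 5 turned. The 5 were changes from 30 min to 2 h of HAC in leaf 4 that were not called, without HAC 30 min replicates 5 and 6: LOC100193743 (-0.18), LOC100272756 (-0.12), CKX4 (-0.0086), LOC100274259 (-0.27) and LOC100274481 (-0.024). The cause was not tested. Leaving out single libraries gave 101 lost calls, 23 gained and 18 turned signs in 2856 values. Low counts limit TIFY29, JAZ9/TIFY13 and LOC103641391, whose controls are near 0.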
